A study of Homo sapiens with 4 samples.

Results

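Cells cut the matrix around them largely with enzymes held at their own surface. The genes described here encode those enzymes and the proteins that hold them in check: the membrane-type matrix metalloproteinases MMP14, MMP15, MMP16, MMP24 and MMP25, the tissue inhibitors of metalloproteinases TIMP1, TIMP2 and TIMP3, the membrane-anchored inhibitor RECK, and basigin (BSG), a surface glycoprotein that induces metalloproteinases in neighbouring cells. They were taken by gene name from the deposited table, in which each of the 10 names matched 1 row, so they make up 10 of 57659 listed genes. RNA-seq libraries were prepared from an established cell line of human renal carcinoma, transfected with siRNA specific for SLFN5 (2 libraries, called SLFN5 siRNA 1 and 2) or with control siRNA (2 libraries, called Control siRNA 1 and 2). All 4 libraries thus come from transfected cells of a single line. The sources used here do not give the siRNA sequences, dose or time after transfection, and no label states that libraries of a group are separate cultures, so the p-values measure only the spread between these libraries, which may be technical. In RNA from whole cultures, a change in how many cells express a gene and a change in each cell cannot be told apart.

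Membrane-type metalloproteinases are made as inactive precursors, cut in the secretory pathway by furin-like convertases, and displayed at the cell surface, where MMP14 degrades fibrillar collagen. MMP14 also binds TIMP2, and the complex captures and activates the precursor of the gelatinase MMP2, so TIMP2 takes part in activation as well as in inhibition. TIMP1 inhibits the membrane-spanning enzymes poorly, whereas TIMP2 and TIMP3 inhibit them well, and RECK restrains MMP14, MMP2 and MMP9. In renal carcinoma this surface proteolysis is studied for its part in invasion, and the series title ties SLFN5, a member of the Schlafen family, to the motility and invasiveness of these cells.

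Promoters were available in the RefSeq table for 7 of the 10 genes. They are shown for the 3 enzyme genes among them that were higher after SLFN5 siRNA (MMP14, MMP15 and MMP24), and for RECK. RECK had lower values after SLFN5 siRNA but did not pass the test (limma adjusted p = 0.0977). Each runs from 250 bases before to 50 bases after the start site on GRCh38.p14, whereas the authors' build was hg19. Capitals mark GC boxes (GGGCGG, on either strand).
MMP14 promoter, chr14:22836335-22836634, + strand: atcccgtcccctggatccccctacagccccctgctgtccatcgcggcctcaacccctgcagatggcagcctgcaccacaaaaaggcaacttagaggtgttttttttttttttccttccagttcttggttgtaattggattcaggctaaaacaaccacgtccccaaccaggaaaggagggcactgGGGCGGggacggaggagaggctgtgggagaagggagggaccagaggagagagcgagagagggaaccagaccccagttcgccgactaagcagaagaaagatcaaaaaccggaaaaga
MMP15 promoter, chr16:58025504-58025803, + strand: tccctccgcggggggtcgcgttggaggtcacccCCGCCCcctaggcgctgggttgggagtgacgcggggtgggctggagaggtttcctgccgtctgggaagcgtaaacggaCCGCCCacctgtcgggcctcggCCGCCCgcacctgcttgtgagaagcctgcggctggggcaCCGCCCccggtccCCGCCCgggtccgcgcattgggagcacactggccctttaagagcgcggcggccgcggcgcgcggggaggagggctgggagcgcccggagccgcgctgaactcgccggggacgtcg
MMP24 promoter, chr20:35226440-35226739, + strand: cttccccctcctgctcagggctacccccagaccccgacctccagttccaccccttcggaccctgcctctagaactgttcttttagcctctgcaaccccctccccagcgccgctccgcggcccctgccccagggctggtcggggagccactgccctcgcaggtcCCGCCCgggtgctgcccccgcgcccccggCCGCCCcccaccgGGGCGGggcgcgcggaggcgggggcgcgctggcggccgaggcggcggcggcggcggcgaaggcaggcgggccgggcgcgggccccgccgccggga
RECK promoter, chr9:36036663-36036962, + strand: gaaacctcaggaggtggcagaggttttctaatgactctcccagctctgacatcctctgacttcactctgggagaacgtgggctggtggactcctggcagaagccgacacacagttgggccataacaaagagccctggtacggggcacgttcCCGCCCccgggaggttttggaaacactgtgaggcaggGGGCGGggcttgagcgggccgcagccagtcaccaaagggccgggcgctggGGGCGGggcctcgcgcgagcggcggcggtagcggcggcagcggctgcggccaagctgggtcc
GC boxes numbered 1 in MMP14, 5 in MMP15, 3 in MMP24 and 3 in RECK. TIMP1 had 2, TIMP3 had 5, and BSG had 0 at one listed start and 3 at the other, so the box was found in genes that rose, in genes that did not pass the test and in a gene with almost no reads. Among all 35116 promoters of this length in the table, 45% held at least 1 GC box. None of the 4 printed windows held TATAAA (11.5% of all promoters), TGANTCA, the AP-1 letters (7.71%), or CACGTG, an E-box (7.26%), with both strands searched and overlaps between motifs allowed. Their G and C content was 55.0% in MMP14, 75.3% in MMP15, 80.0% in MMP24 and 66.7% in RECK, against a median of 58.7% over all promoters. These counts describe the letters in the windows, and no binding was measured.

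The deposited values are called equalised counts here: reads per gene that the authors adjusted to 1 common library size, not scaled for gene length. Whole read counts recovered from them gave depths of 17117659 and 14700669 reads in the SLFN5 siRNA libraries and 31905328 and 13187517 in the Control siRNA libraries, so the deepest library had 2.42 times the reads of the shallowest. SLFN5 itself (ENSG00000166750) had 167 and 118 equalised counts in the SLFN5 siRNA libraries and 420 and 353 in the Control siRNA libraries, a log2 change of -1.45 (SE 0.21, limma adjusted p = 0.000524). Of 9 markers of a renal carcinoma line, all 9 were tested and abundant except PAX2 (20.2 to 68.1 equalised counts). CDH6 (log2 change 1.42) and EPAS1 (0.55) were higher after SLFN5 siRNA, NNMT (-0.90), CDH2 (-0.47) and VIM (-0.46) were lower, and PAX8, PAX2, KRT8 and KRT18 did not pass. Of the leukocyte markers, CD3E had 0 reads, PTPRC and LYZ had 1 each and CD14 had 19 over the 4 libraries. Of 4 endothelial markers 0 were tested, with PECAM1 at 0 reads and KDR highest at 30. Of 4 fibroblast markers 2 were tested and 0 called: LUM had 45.9 and 27.2 equalised counts after SLFN5 siRNA and 90.7 and 54.0 after control siRNA (log2 change -0.96, SE 0.38, limma adjusted p = 0.0789), PDGFRA had 43 reads in all, and DCN had 1. The fibroblast markers summed to 59.3 and 43.4 equalised counts after SLFN5 siRNA and 99.1 and 65.2 after control siRNA. Most of this sum was LUM in every library. The part of these differences in the results was not tested.

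Of the 10 genes, 8 had at least 10 equalised counts in at least 2 libraries and were tested. After SLFN5 siRNA, 5 of them were higher (MMP14, MMP15, MMP16, MMP24 and TIMP2), 0 were lower, and TIMP1, RECK and BSG did not pass the threshold (limma on log2(value + 1), Benjamini-Hochberg adjusted p under 0.05 over all 15640 genes tested). In the same comparison 13.3% of all tested genes were higher, 16.3% lower and 29.6% changed in either direction. The median log2 change of the 8 tested genes was 0.70, beside -0.03 over all tested genes. The higher calls over all genes numbered 2086 and the lower calls 2544. When libraries were scaled by their recovered read totals, which moved the median change of all genes by 0.12, these were 2771 and 1744, and the same 5 and 0 were called here. The variance estimate mattered more: without an intensity trend in it, only MMP15 and MMP24 of these genes passed, and of the called pathway genes only MMP13, SDC1 and CTTN.

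**Figure D1:**
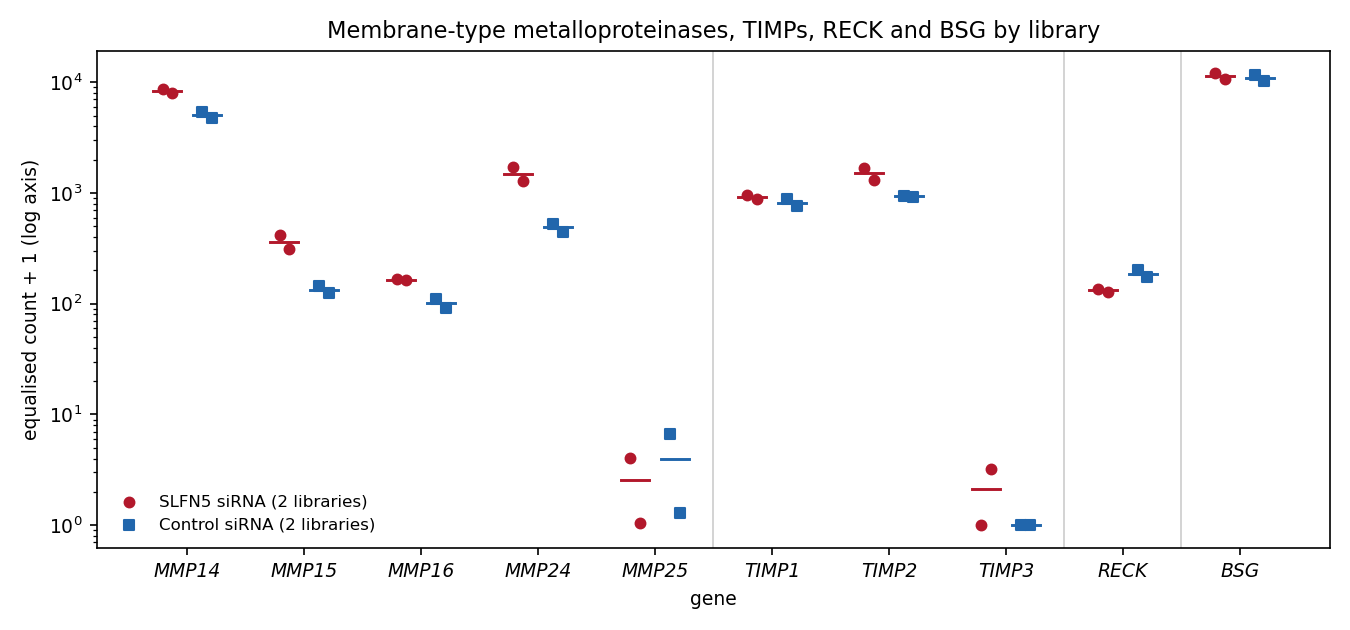
Equalised counts plus 1 (log axis) of the 10 genes in the 2 SLFN5 siRNA libraries (circles, left) and the 2 Control siRNA libraries (squares, right), with a line at each group mean. The groups are separate for MMP14, MMP15, MMP16, MMP24, TIMP2 and RECK, overlap for TIMP1 and BSG, and lie near 0 for MMP25 and TIMP3.

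MMP14, MMP15, MMP16 and MMP24 were higher after SLFN5 siRNA. MMP17, a membrane-type enzyme outside the 10 genes, is given with the pathway lists. Its log2 change of 0.73 was close to those of MMP14 and MMP16, but it did not pass (SE 0.49, limma adjusted p = 0.292). It had only 8 to 23 reads per library. MMP14 (ENSG00000157227), the main surface collagenase, had 8672 and 7983 equalised counts after SLFN5 siRNA and 5409 and 4746 after control siRNA. Both SLFN5 siRNA libraries lay well above both control libraries, and the spread within each group was small beside the gap. The means were 8328 ± 488 and 5077 ± 469 (SD, n = 2 each), a 1.64-fold difference with a log2 change of 0.72 (SE 0.11, 95% interval 0.47 to 0.96, limma adjusted p = 0.000762). MMP14 rested on 3278 to 9297 reads per library, the largest number of any enzyme in this group of genes.

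MMP24 (ENSG00000125966), a membrane-spanning enzyme best known from the nervous system, changed most. It had 1714 and 1275 equalised counts in the SLFN5 siRNA libraries and 529 and 447 in the Control siRNA libraries. The lower of the SLFN5 siRNA values was still far above the higher control value, although the SLFN5 siRNA libraries differed between themselves more than the controls did. Its means were 1495 ± 311 and 488 ± 57.7 (SD, n = 2 each), a 3.04-fold difference (log2 change 1.60, SE 0.16, 95% interval 1.25 to 1.96, limma adjusted p = 5.41e-05). Only 1.80% of all tested genes had a larger log2 change. MMP24 shares sequence positions with an antisense gene, listed as MMP24-AS1 in the table, whose exons overlap those of MMP24 by 799 bases in GENCODE release 29. MMP24-AS1 had 470 and 375 equalised counts after SLFN5 siRNA and 212 and 172 after control siRNA (log2 change 1.13, SE 0.19, limma adjusted p = 0.00123). The library kit does not mark strand, so reads from the shared positions cannot be assigned to either gene, and their part in the MMP24 value was not tested.

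MMP15 (ENSG00000102996), a membrane-spanning relative of MMP14, was lower in level. Its SLFN5 siRNA libraries had 416 and 308 equalised counts and its Control siRNA libraries 143 and 124. The groups were again well apart, with both SLFN5 siRNA values above both control values. The difference was 2.69-fold, from means of 362 ± 76.0 and 133 ± 13.3 (SD, n = 2 each; log2 change 1.42, SE 0.21, 95% interval 0.97 to 1.88, limma adjusted p = 0.000504). MMP15 exceeded the 95th percentile of the log2 changes of all tested genes, 1.17, as MMP24 did, while MMP14 and MMP16 lay inside it. Whether the enzymes differ from each other in the size of their change was not tested.

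MMP16 (ENSG00000156103), which can also activate the MMP2 precursor, had the lowest values of these 4 enzymes. It had 165 and 164 equalised counts after SLFN5 siRNA and 109 and 90.6 after control siRNA. The SLFN5 siRNA libraries were nearly equal and both above the controls, which differed more from each other. The log2 change was 0.72 (SE 0.23, 95% interval 0.21 to 1.22, limma adjusted p = 0.0350), a 1.64-fold difference like that of MMP14 but with a wider interval. The call was lost without Control siRNA 2 (log2 change 0.58, adjusted p = 0.238), without SLFN5 siRNA 1 (adjusted p = 0.0904) and without SLFN5 siRNA 2 (adjusted p = 0.0817). It rested on 62 to 187 reads per library.

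MMP25 (ENSG00000008516), a lipid-anchored enzyme of leukocytes, was near the detection limit and was not tested. Its recovered reads numbered 3 and 0 in the SLFN5 siRNA libraries and 9 and 0 in the Control siRNA libraries. The reads came from the first library of each group, and no difference was detectable at this depth. A gene antisense to MMP25, listed as RP11-473M20.7, whose exons overlap it by 1454 bases, had 43.9 and 15.8 equalised counts after SLFN5 siRNA and 10.8 and 22 after control siRNA (log2 change 0.74, SE 0.57, limma adjusted p = 0.371).

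**Figure D2:**
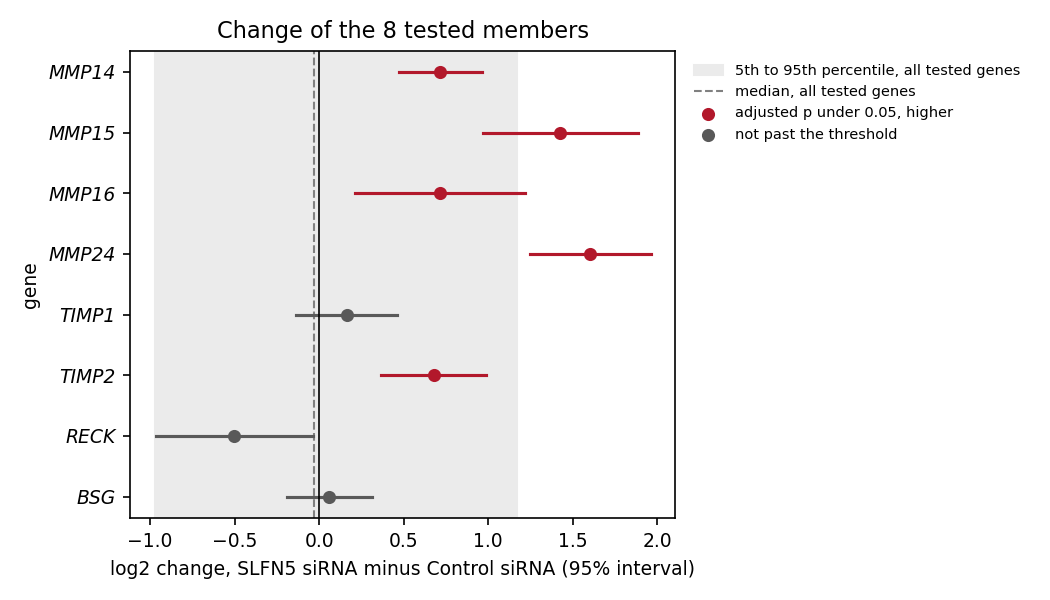
Log2 change (SLFN5 siRNA minus Control siRNA) of the 8 tested genes with its 95% interval from the limma fit, coloured by whether the adjusted p was under 0.05. Shading spans the 5th to 95th percentile of all tested genes (-0.97 to 1.17) and the dashed line is their median (-0.03). MMP24 and MMP15 lie beyond the shaded range.

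Among the soluble inhibitors, TIMP2 was higher, TIMP1 did not pass and TIMP3 was all but absent. TIMP2 (ENSG00000035862), the inhibitor that docks the MMP2 precursor to MMP14, had 1691 and 1318 equalised counts after SLFN5 siRNA and 944 and 924 after control siRNA. The controls were nearly equal and both SLFN5 siRNA libraries lay above them, at different heights. The means were 1504 ± 264 and 934 ± 14.5 (SD, n = 2 each), a 1.60-fold difference (log2 change 0.68, SE 0.14, 95% interval 0.37 to 0.98, limma adjusted p = 0.00405). A gene on the same strand, CTD-2373H9.6, shares 198 exonic bases with it and had at most 3.05 equalised counts in any library.

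TIMP1 (ENSG00000102265), an inhibitor mainly of secreted metalloproteinases, had 955 and 875 equalised counts in the SLFN5 siRNA libraries and 880 and 758 in the Control siRNA libraries. The groups overlapped. Its log2 change was 0.16 (SE 0.14, 95% interval -0.14 to 0.46, limma adjusted p = 0.411), so the interval leaves room for a rise of up to 0.46 but not for one of the size measured for MMP24. TIMP3 (ENSG00000100234), which binds to the extracellular matrix and inhibits membrane enzymes and ADAM17, had 0 and 2 reads in the SLFN5 siRNA libraries and 0 and 0 in the Control siRNA libraries. A count of 0 allows up to 3 reads, counting error only, and both control libraries stood at 0. TIMP3 was therefore at or under the limit of detection in every library, and no direction can be read from it.

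RECK (ENSG00000122707) had lower values after SLFN5 siRNA, opposite in direction to the 4 tested enzymes, without passing the test. It had 135 and 127 equalised counts after SLFN5 siRNA and 199 and 173 after control siRNA. Both SLFN5 siRNA values were below both controls, as for 34.1% of all tested genes. The log2 change was -0.50 (SE 0.21, 95% interval -0.97 to -0.04, unadjusted p = 0.0365, adjusted p = 0.0977 in limma). Basigin (BSG, ENSG00000172270), which also escorts lactate transporters to the membrane, had 12035 and 10712 equalised counts after SLFN5 siRNA and 11526 and 10278 after control siRNA. These values interleave, with a log2 change of 0.06 (SE 0.11, 95% interval -0.19 to 0.31, limma adjusted p = 0.735). An antisense gene, AC009005.1, overlaps BSG exons by 140 bases and is not among the listed genes.

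Counted by separation alone, both SLFN5 siRNA libraries were above both controls in 5 of the 8 tested genes, beside 30.5% of all tested genes, and below both in 1 of 8, beside 34.1%. Same-numbered libraries share a code in their titles whose meaning is not stated. Between the libraries numbered 1, the log2 differences were 1.70 for MMP24, 1.54 for MMP15, 0.84 for TIMP2, 0.68 for MMP14, 0.58 for MMP16 and -0.56 for RECK. Between the libraries numbered 2 they were 1.51, 1.31, 0.51, 0.75, 0.85 and -0.45 in the same gene order. In these 6 genes the groups did not overlap, so the same direction in both comparisons was given in advance. TIMP1 (0.12 and 0.21) and BSG (0.06 and 0.06), whose groups overlapped, also kept theirs.

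Levels of different genes were compared per kilobase of exons (union of exons in GENCODE release 29, matched by gene ID for all 10 genes). After SLFN5 siRNA the order of the mean levels was BSG (2995 ± 246 equalised counts per kb), MMP14 (1866 ± 109), TIMP1 (594 ± 36.6), MMP24 (339 ± 70.4), TIMP2 (267 ± 46.8), MMP15 (82.0 ± 17.2), RECK (21.6 ± 0.96) and MMP16 (13.6 ± 0.045). After control siRNA it was BSG (2871 ± 232), MMP14 (1137 ± 105), TIMP1 (531 ± 55.9), TIMP2 (166 ± 2.58), MMP24 (110 ± 13.1), RECK (30.8 ± 3.04), MMP15 (30.1 ± 3) and MMP16 (8.26 ± 1.10; SD, n = 2 each). MMP24 was above TIMP2 in both SLFN5 siRNA libraries, at 388 and 289 per kb for MMP24 and 300.2 and 234 for TIMP2. It was below TIMP2 in both Control siRNA libraries, at 120 and 101 per kb for MMP24 and 168 and 164 for TIMP2. This order was not tested, and the MMP24 level includes any reads from its antisense gene. After control siRNA, RECK and MMP15 were level, with overlapping values around 30.8 and 30.1 per kb, whereas after SLFN5 siRNA MMP15 stood above RECK, at 94.1 and 69.8 per kb for MMP15 and 22.3 and 21.0 for RECK. MMP25 and TIMP3 came last in every library at under 1.4 per kb.

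MMP14 made up most of the summed level of MMP14, MMP15, MMP16, MMP24 and MMP25 in every library, and MMP24 and MMP15 took larger shares after SLFN5 siRNA than after control siRNA. The per-kilobase level of these 5 enzymes summed to 2440 and 2160 after SLFN5 siRNA and to 1374 and 1200 after control siRNA. MMP14 held 79.6% and 82.8% of that sum after SLFN5 siRNA and 88.2% and 88.6% after control siRNA. MMP24 held 15.9% and 13.4% after SLFN5 siRNA and 8.72% and 8.44% after control siRNA. MMP15 held 3.86% and 3.23% after SLFN5 siRNA and 2.35% and 2.33% after control siRNA, while MMP16 held under 1% in every library. The groups did not overlap in the sum or in the MMP14, MMP24 and MMP15 shares, which are descriptions and were not tested, and the MMP24 share includes any reads from its antisense gene.

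A scaling factor shared by all genes of a library cancels in a ratio within that library. With recovered reads in place of equalised counts, the log2 differences below were nearly the same (-0.552 for TIMP1 and -0.039 for TIMP2, each to MMP14). The ratio of TIMP1 to MMP14 equalised counts was 0.110 and 0.110 after SLFN5 siRNA and 0.163 and 0.160 after control siRNA, a log2 difference of -0.55. This ratio was lower in both SLFN5 siRNA libraries than in both controls, and was not tested. With n = 2 per group, the near equality within each group does not measure the error of the ratio. The ratio of TIMP2 to MMP14 was 0.195 and 0.165 after SLFN5 siRNA and 0.175 and 0.195 after control siRNA (log2 difference -0.04), with overlapping groups, and its sign turned without Control siRNA 2 (0.04) and without SLFN5 siRNA 2 (0.08). With at most 2 reads, TIMP3 gave no usable ratio.

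**Figure D3:**
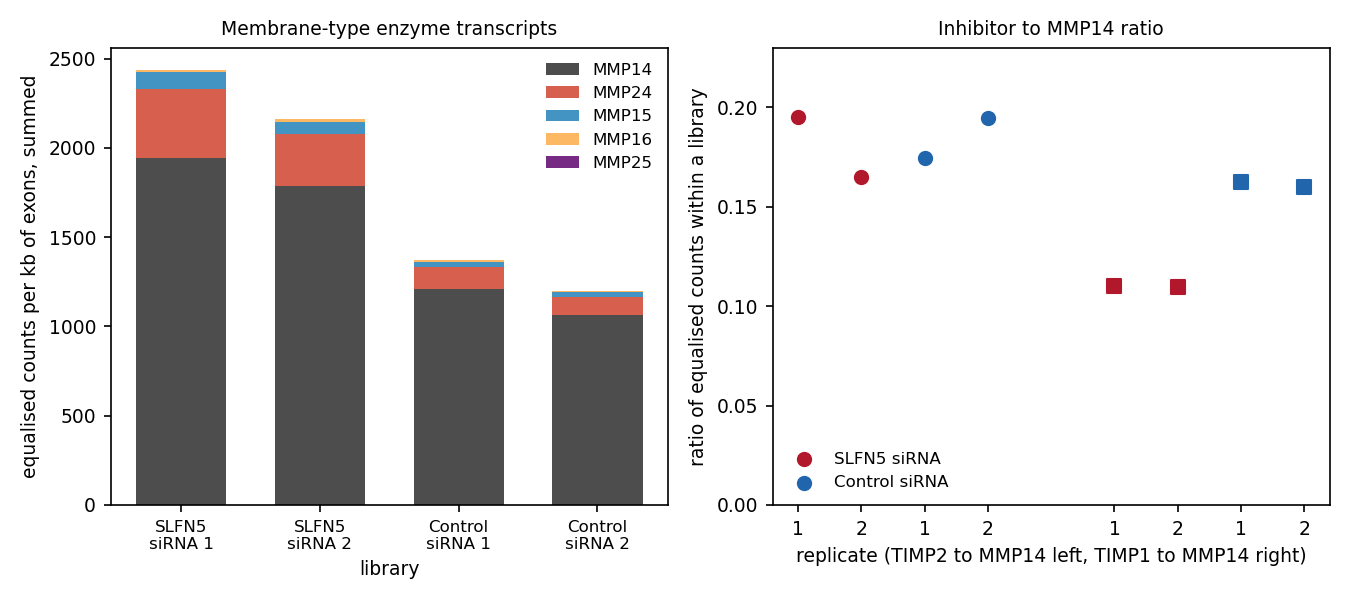
Left, equalised counts per kilobase of exons of MMP14, MMP15, MMP16, MMP24 and MMP25, stacked, in each library. Right, ratio of TIMP2 (circles) and TIMP1 (squares) to MMP14 equalised counts by replicate, SLFN5 siRNA in red and Control siRNA in blue. The enzyme sum is 2440 and 2160 after SLFN5 siRNA and 1374 and 1200 after control siRNA, and the TIMP1 to MMP14 ratio is lower after SLFN5 siRNA.

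The genes around these enzymes moved in both directions. Of 47 pathway genes in 7 lists, 36 were tested, 10 were higher and 6 lower after SLFN5 siRNA, with a median log2 change of 0.14. That is 10 of 36 beside 13.3% of all tested genes, and 6 of 36 beside 16.3%. The convertases that activate the enzymes gave 0 calls among 3 tested. FURIN had 2116 and 1933 equalised counts after SLFN5 siRNA and 1675 and 1735 after control siRNA (log2 change 0.25, SE 0.12, limma adjusted p = 0.132). PCSK5 and PCSK7 had log2 changes of 0.49 and -0.11 that did not pass, and PCSK6 was too low to test.

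Among partners and substrates of MMP14, 4 of 7 tested were higher and 1 lower, beside 13.3% and 16.3% of all tested genes. MMP2, the gelatinase activated through MMP14 and TIMP2, had 1007 and 711 equalised counts after SLFN5 siRNA and 531 and 360 after control siRNA (log2 change 0.95, SE 0.21, limma adjusted p = 0.00525). The collagenase MMP13, whose precursor MMP14 can also activate, had 716 and 470 equalised counts after SLFN5 siRNA and 72.8 and 36.8 after control siRNA (log2 change 3.46, SE 0.31, limma adjusted p = 2.74e-05). The proteoglycan syndecan-1 (SDC1), shed by MMP14, had 3438 and 3145 after SLFN5 siRNA and 1732 and 1692 after control siRNA (log2 change 0.94, SE 0.11, limma adjusted p = 0.000136). All SLFN5 siRNA libraries were above all controls for these 3 genes, as they were for 30.5% of all tested genes. The endocytic receptor LRP1 rose by 1.11 on the log2 scale (SE 0.26, limma adjusted p = 0.00798) but leaving out SLFN5 siRNA 1 ended the call (log2 change 0.70, adjusted p = 0.0676). The lower gene was the hyaluronan receptor CD44, named after its value was seen, with a log2 change of -0.38 (SE 0.12, limma adjusted p = 0.0351). The CD44 call ended when Control siRNA 2 was left out (log2 change -0.22, adjusted p = 0.412), when SLFN5 siRNA 1 (0.0831) or 2 (0.0959) was, and with scaling by read totals (0.139).

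Of the remaining enzyme and inhibitor genes, 3 of 8 were tested. Of these 2 were higher and 0 lower, beside 13.3% and 16.3% of all tested genes. The proteoglycan testican (SPOCK1) had 1094 and 943 equalised counts after SLFN5 siRNA and 698 and 550 after control siRNA (log2 change 0.71, SE 0.15, limma adjusted p = 0.00491). The Kunitz-type inhibitor TFPI2 had a log2 change of 0.61 (SE 0.18, limma adjusted p = 0.0283), which was 0.27 without Control siRNA 1 (adjusted p = 0.297) and did not pass without SLFN5 siRNA 2 (adjusted p = 0.139) or after median centring (0.0544). MMP17, the remaining membrane-type enzyme, was low at 23.5 and 19.9 equalised counts after SLFN5 siRNA and 13.5 and 11.8 after control siRNA, and its log2 change of 0.73 (SE 0.49) missed the threshold (adjusted p = 0.292). TIMP4 had 17 reads over all libraries. Of the proteases that TIMP3 inhibits, ADAM17, the sheddase of TNF and EGF receptor ligands, fell by 0.59 (SE 0.11, limma adjusted p = 0.00258), with 1626 and 1586 equalised counts after SLFN5 siRNA and 2514 and 2321 after control siRNA. ADAM10 had a log2 change of -0.37 (limma adjusted p = 0.0205), a call that ended without Control siRNA 1 (adjusted p = 0.145), Control siRNA 2 (0.0931) or SLFN5 siRNA 1 (0.0632), or with scaling by read totals (0.137).

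Genes that place the enzymes at invasive protrusions gave 2 higher and 1 lower call among 10 tested, beside 13.3% and 16.3% of all tested genes. Cortactin (CTTN), an actin-binding protein of invadopodia, had 3141 and 2968 equalised counts after SLFN5 siRNA and 1446 and 1347 after control siRNA (log2 change 1.13, SE 0.11, limma adjusted p = 5.08e-05). The scaffold SH3PXD2B rose by 0.85 (SE 0.16, limma adjusted p = 0.00204), while its relative SH3PXD2A had a log2 change of 0.60 that did not pass (adjusted p = 0.0825). RAB8A, a small GTPase that carries MMP14 to the surface, went the other way with 1369 and 1260 equalised counts after SLFN5 siRNA and 2454 and 2205 after control siRNA (log2 change -0.82, SE 0.12, limma adjusted p = 0.000462). The values of CTTN and of RAB8A did not overlap between groups. Over all tested genes, 30.5% separated upward as CTTN did and 34.1% downward as RAB8A did.

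Tetraspanins are membrane organisers that include the TIMP1-binding protein CD63. They gave 2 higher and 0 lower calls among 5 tested, beside 13.3% and 16.3% of all tested genes. Both calls depended on single libraries. CD63 had a log2 change of 0.38 (limma adjusted p = 0.0221), a call that ended without Control siRNA 1 (adjusted p = 0.226), SLFN5 siRNA 1 (0.0716) or SLFN5 siRNA 2 (0.0539). TSPAN12 had one of 0.39 (limma adjusted p = 0.0492), a call that ended without Control siRNA 1 (adjusted p = 0.0591), Control siRNA 2 (log2 change 0.30, adjusted p = 0.324) or SLFN5 siRNA 1 (0.213), after median centring (0.0709), with a pseudocount of 0.5 (0.05 when rounded) or in limma-voom (0.0512).

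Basigin did not pass the test, whereas the lactate transporters it escorts were lower. SLC16A1 had 2672 and 3430 equalised counts after SLFN5 siRNA and 4572 and 5720 after control siRNA (log2 change -0.76, SE 0.14, limma adjusted p = 0.00248). SLC16A3, the transporter for lactate export, had 10398 and 10427 after SLFN5 siRNA and 13198 and 13400 after control siRNA (log2 change -0.35, SE 0.10, limma adjusted p = 0.0231). The SLC16A3 call was lost without any 1 of the 4 libraries (adjusted p from 0.0656 to 0.154) and with scaling by read totals (0.156). The cyclophilins PPIA and PPIB, ligands of basigin, had log2 changes of -0.03 and 0.10, and its relative NPTN one of 0.04. None of these 3 passed.

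**Figure D4:**
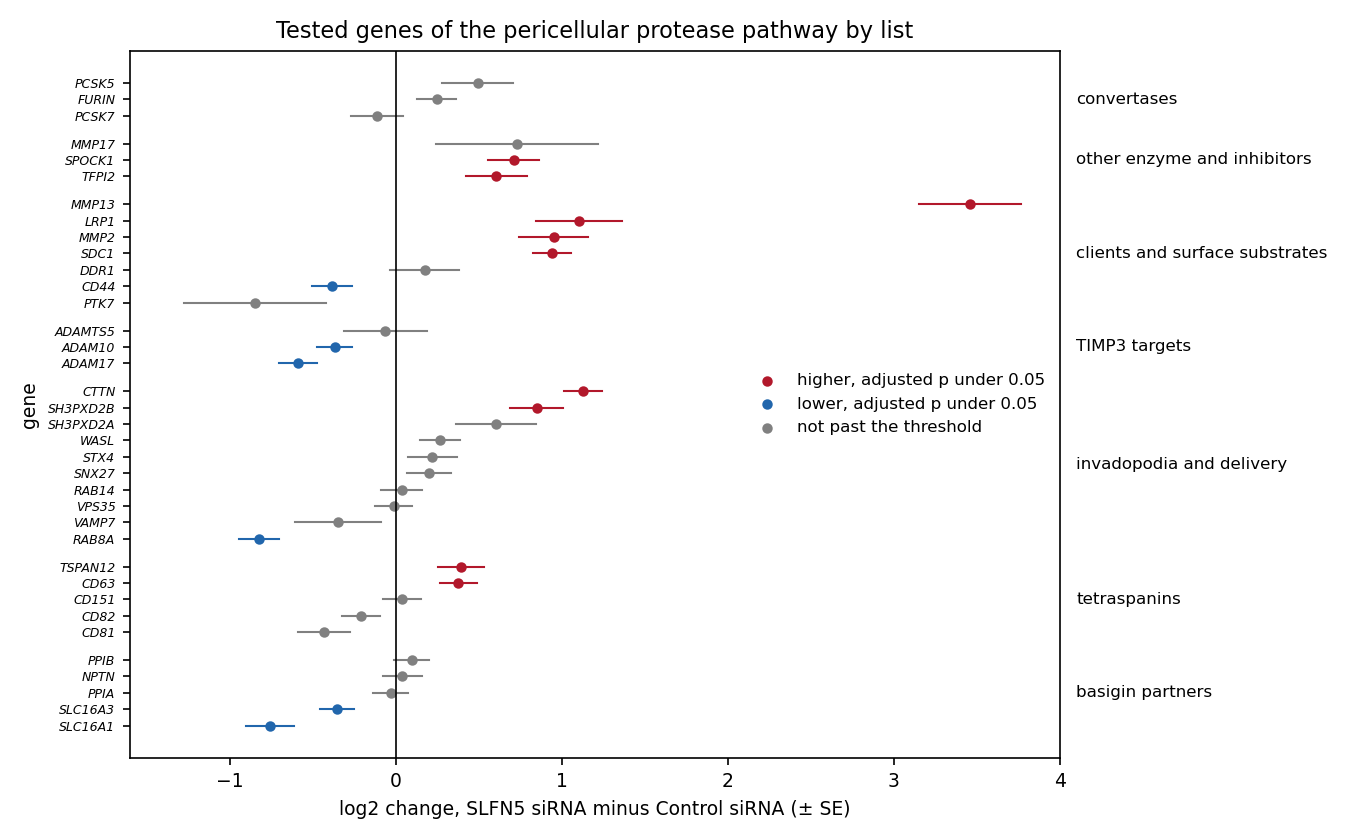
Log2 change (SLFN5 siRNA minus Control siRNA, ± SE) of the 36 tested pathway genes by list, red where higher and blue where lower at an adjusted p under 0.05. The 10 higher genes include MMP13 at 3.46 and CTTN at 1.13, and the 6 lower genes include RAB8A at -0.82 and SLC16A1 at -0.76.

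Across the 4 libraries, the tested genes whose values ran closest to MMP14 were the zinc transporter gene SLC39A9, the spindle protein gene NUMA1 and NACC2, at distances of 0.030, 0.046 and 0.046 on the centred log2 scale. Those closest to TIMP2 were TBXAS1, FRMPD3 and PGLS, at 0.018, 0.034 and 0.034. Of these, FRMPD3 did not itself pass the test (log2 change 0.65, SE 0.44, limma adjusted p = 0.298). With 4 libraries such closeness describes the values only.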

How the data were processed

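The 4 libraries were grouped by their labels; the design text speaks of triplicates. Per the labels' protocols, libraries were made from poly(A)-selected RNA with a TruSeq RNA kit and read from 1 end on an Illumina HiSeq sequencer. The submitters' processing notes name edgeR and hg19. The sources used here name no aligner, read counter or annotation. The deposited signal per gene is not whole, and is what the authors obtained by adjusting reads to a common library size. That adjustment was inverted with a common dispersion of 0.0162, and all 230636 values came back as whole reads (relative difference at most 1.34e-07, tolerance 1e-06). Replicates of a group differed by more than sampling noise (chi-square divided by its degrees of freedom 15.9 in each group).

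Genes with at least 10 equalised counts in at least 2 libraries (15640) were fitted as log2(value + 1) on group by limma 3.58.1 in R 4.3.3, with an intensity trend (prior df 9.6, residual df 2) and Benjamini-Hochberg adjustment. A log2 change on this scale understates low genes. The fit and the inversion were tested on data simulated with the dispersion, library sizes and adjustment used here. Such a test shares the assumptions of the inversion and cannot check them. Alternatives changed the pseudocount, filter, scaling, variance trend, test, block and libraries. For a name with several rows (DDR1, MMP13), the row with most reads was used. All 10 genes are named, and of each pathway list the called genes, at most 4 by size, other pathway genes being chosen after their values were seen. The leukocyte marker list is not reported in full here. Members, lists and tests were chosen with earlier results of these data known. The sharing of replicate numbers was checked as described under sensitivity.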

Additional observations from a re-analysis of the deposited data

How the results depend on the processing

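The count of 5 higher genes among the 8 tested was 4 to 5 when a library was left out and 5 under the other alternatives run, except limma without an intensity trend, which gave 2. There MMP14, MMP16 and TIMP2 did not pass (adjusted p = 0.0629, 0.0669 and 0.0864), and 672 and 510 genes were higher and lower over the whole table, with 3 and 0 in the pathway lists. The count of lower genes was 0 without any 1 library. Over all genes, the higher and lower calls ranged from 1346 to 1767 and from 1588 to 2341 when a library was left out, with the fewest without Control siRNA 2. Pathway counts ranged from 7 to 10 higher and 4 to 5 lower without 1 library, and scaling by read totals left 3 lower. The log2 change of BSG, which passed in no setting, was -0.0217 without Control siRNA 2 and ranged from -0.0230 to 0.145 without 1 library. The TIMP2 to MMP14 log2 ratio difference ranged from -0.159 to 0.081 and that of TIMP1 to MMP14 from -0.57 to -0.54 without 1 library.

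With the replicate block as a term, RECK passed (log2 change -0.50, adjusted p = 0.0404), so 1 gene was lower and 5 were higher, and 3008 and 3695 genes were called over the whole table. The deviations of same-numbered libraries from their group means had a correlation of 0.19 over 15640 genes. The labels do not say that the numbers pair the libraries. In both groups library 1 was also the deeper one, and the part of depth in this correlation was not tested. The cause of the differences between settings was not tested. Depth limits MMP25 and TIMP3, with 12 and 2 reads in all, and MMP16.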
